A study of Mus musculus with 8 samples.

Results

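Rod photoreceptor genes are described here as 37 named members among the 25477 genes counted in mouse retina. They were taken by gene symbol from a list of rod transduction, outer segment, cilium and transcription factor genes, and all 37 passed the filter on low counts. Messenger RNA was sequenced from 4 retina samples of PD-L1 knockout mice (KO-CNV) and 4 of control mice (WT-CNV). Both groups carry choroidal neovascularization (CNV), the growth of vessels from the choroid under the retina, in their names. PD-L1, the product of Cd274, is a ligand that restrains immune cells, and its loss is the only difference that the labels give. No source used here gives the strain, age, sex, the deleted part of Cd274, how CNV was induced, the time after it or any pooling of animals. Nor does any label tie the libraries to different mice, so p-values reflect variation among these libraries, part or all of which may be technical.

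Rods are the light sensors of dim vision and the most numerous cells of the mouse retina. In their outer segment, a stack of membrane discs on a modified cilium, activated visual pigment switches on the G protein transducin, transducin switches on a phosphodiesterase, cyclic GMP falls and cyclic GMP-gated channels close. The transcription factor NRL sets rod identity, and it acts with CRX and NR2E3 on most of the genes described here. Several members (Gnb1, Crx, Prph2, Gucy2e, Guca1a, Aipl1, Cabp4 and Unc119 among them) are also used by cones or other cells.

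Gene counts summed to 34065854 to 36438248 in KO-CNV and 31743404 to 34054268 in WT-CNV libraries, and Cd274 held 9 to 15 counts in KO-CNV and 117 to 165 in WT-CNV libraries, as labelled. Nrl, the marker of rods, was high in all 8 libraries, at 553, 704, 697 and 626 FPKM in KO-CNV libraries 1 to 4 and 668, 797, 721 and 592 FPKM in WT-CNV libraries 1 to 4. FPKM is the authors' count scaled by gene length and by library total, and levels of different genes are compared on that scale only. Transcripts of lens, a tissue next to the retina, summed to 2807 CPM (counts scaled by library size) in KO-CNV library 3 and to 6790 and 1920 CPM in WT-CNV libraries 2 and 3, but to at most 51.2 CPM in each of the other 5. Transcripts of 4 haemoglobin genes, which mark erythrocytes, summed to 1.59 to 4.03 CPM in KO-CNV and 9.86 to 14.1 CPM in WT-CNV libraries. Where such sums move with a rod gene, their part in the result was not tested. In whole retina, fewer rods and less transcript per rod cannot be told apart.

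No rod gene was called higher or lower in KO-CNV than in WT-CNV retina, and most 95% intervals of the log2 fold change contained 0. No member passed the test over all genes (edgeR quasi-likelihood test, adjusted p under 0.05), while 430 of 16861 tested genes did, a background of 2.55%. At an unadjusted p under 0.05 there were 6 members of 37 (16.2%), against 21.3% of all tested genes. The median log2 fold change of the members was 0.04 (KO-CNV over WT-CNV), beside -0.00 for all tested genes. The highest was 0.39 (Sag) and the lowest -0.57 (Gngt1), with 21 members above 0 and 16 below. The 95% interval lay within 0.5 on either side of 0 for 28 members and within 1 for 36, Gngt1 being the exception. DESeq2 called 3 members (8.11%) with a background of 8.26%. They were Sag, higher (background 3.67%), and Gucy2f and Rp1, lower (background 4.59%). By limma-voom 1 member was called, Gucy2f, lower, where the background was 2.85% (1.34% higher and 1.51% lower).

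**Figure D1:**
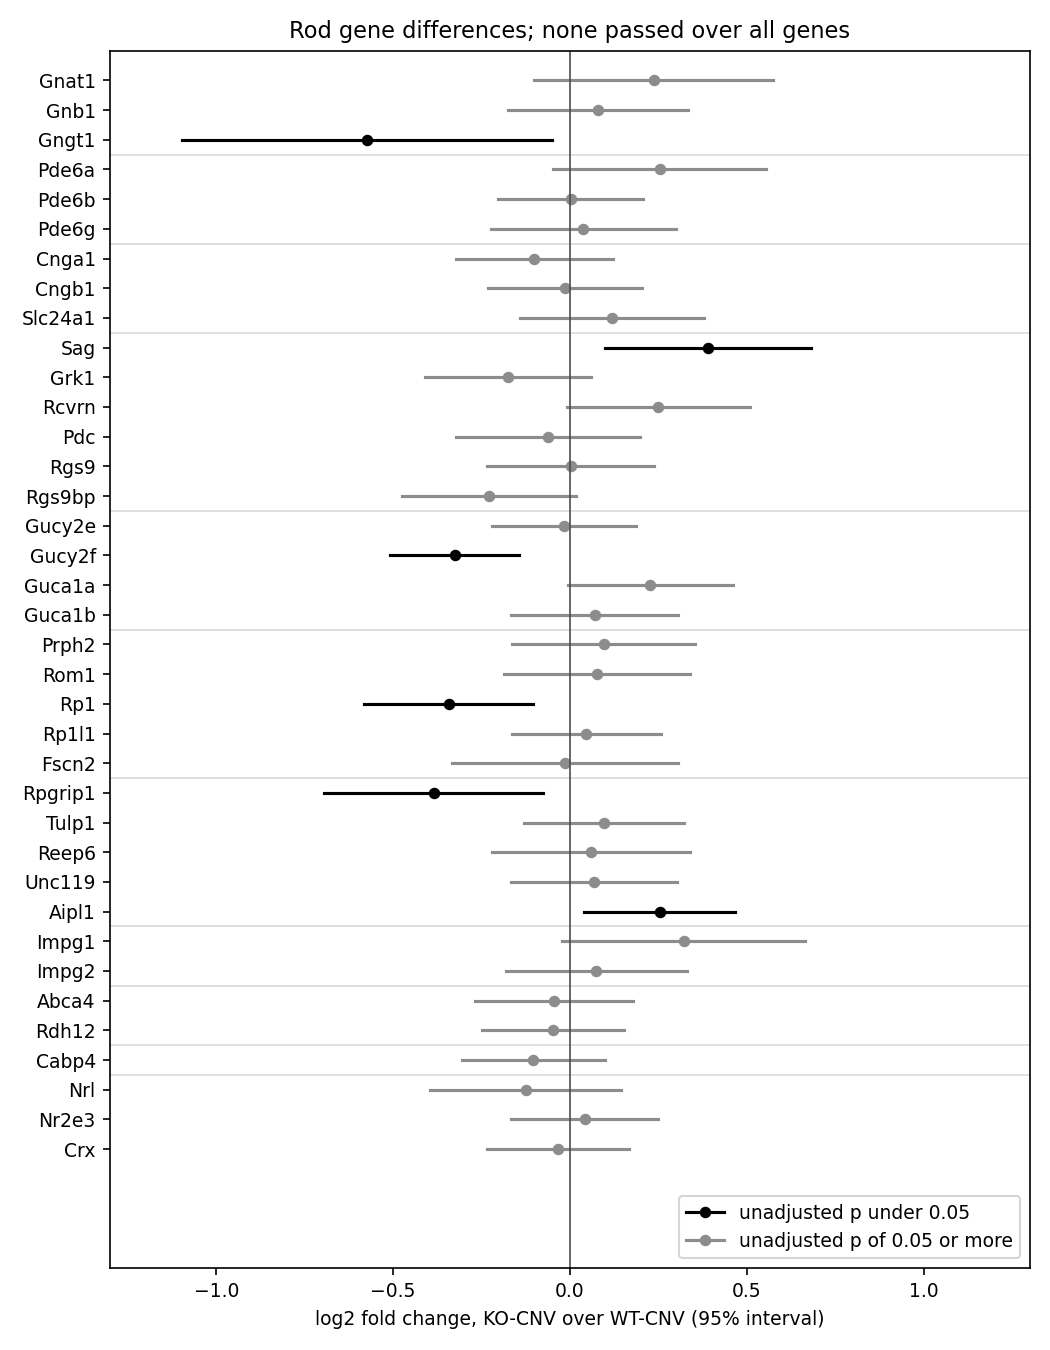
Log2 fold change (KO-CNV over WT-CNV, x axis) of each of the 37 rod genes (y axis, grouped by role) with its 95% interval from the edgeR fit. Black marks the 6 genes with an unadjusted p under 0.05. Gngt1 has the widest interval (-1.10 to -0.05).

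One library decided how many members were called. Without WT-CNV library 4, 8 members passed (21.6%), where the background was 18.7% of all tested genes (10.5% higher and 8.18% lower). Lower in KO-CNV were Gngt1 (-0.78), Rpgrip1 (-0.47), Rp1 (-0.36), Gucy2f (-0.32) and Rgs9bp (-0.31), and higher were Impg1 (0.49), Sag (0.48) and Pde6a (0.37), all as log2 fold changes. Without any other single library, no member passed. Leaving out that library raised the share called among the members and among all genes alike, and nothing particular to rod genes is read from it.

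Upstream sequence of members whose unadjusted p was under 0.05 is printed to show what these genes share outside the counts. The windows run from 250 bases before to 50 bases after a transcription start, from RefSeq on GRCm38.p6 (the same assembly as mm10), 5′ to 3′ in the direction of transcription. Capitals mark TAATCC or its reverse complement GGATTA, the core that CRX recognises, and TGCTGA or its reverse complement TCAGCA, part of the sequence that NRL recognises. Rp1 had no window.
Sag, chr1:87803430-87803729, plus strand: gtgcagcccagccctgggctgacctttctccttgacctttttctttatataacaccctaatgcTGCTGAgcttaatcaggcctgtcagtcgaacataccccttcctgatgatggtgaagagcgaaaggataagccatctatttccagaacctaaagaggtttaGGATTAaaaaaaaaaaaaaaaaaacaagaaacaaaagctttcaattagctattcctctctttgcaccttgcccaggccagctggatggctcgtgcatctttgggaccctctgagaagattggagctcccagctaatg
Rpgrip1, chr14:52110653-52110952, plus strand: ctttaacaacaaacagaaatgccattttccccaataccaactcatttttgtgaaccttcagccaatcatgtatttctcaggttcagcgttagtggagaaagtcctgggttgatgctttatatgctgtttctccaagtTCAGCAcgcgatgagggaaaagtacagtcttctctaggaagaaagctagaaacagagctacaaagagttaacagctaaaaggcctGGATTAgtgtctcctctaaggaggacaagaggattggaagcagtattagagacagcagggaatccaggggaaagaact
Aipl1, chr11:72037460-72037759, minus strand: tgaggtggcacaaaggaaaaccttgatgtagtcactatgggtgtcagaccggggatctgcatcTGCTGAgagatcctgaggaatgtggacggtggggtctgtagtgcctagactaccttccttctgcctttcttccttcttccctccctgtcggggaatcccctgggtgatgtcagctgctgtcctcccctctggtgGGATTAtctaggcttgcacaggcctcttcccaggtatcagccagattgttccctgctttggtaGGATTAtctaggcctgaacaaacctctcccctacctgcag
Gucy2f, chrX:142196887-142197186, minus strand: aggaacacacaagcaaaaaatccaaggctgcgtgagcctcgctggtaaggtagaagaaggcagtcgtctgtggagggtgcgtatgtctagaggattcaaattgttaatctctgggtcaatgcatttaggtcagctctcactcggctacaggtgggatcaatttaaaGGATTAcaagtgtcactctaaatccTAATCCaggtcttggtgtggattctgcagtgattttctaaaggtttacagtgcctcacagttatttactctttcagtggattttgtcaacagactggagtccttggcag
Gngt1, chr6:3993758-3994057, plus strand: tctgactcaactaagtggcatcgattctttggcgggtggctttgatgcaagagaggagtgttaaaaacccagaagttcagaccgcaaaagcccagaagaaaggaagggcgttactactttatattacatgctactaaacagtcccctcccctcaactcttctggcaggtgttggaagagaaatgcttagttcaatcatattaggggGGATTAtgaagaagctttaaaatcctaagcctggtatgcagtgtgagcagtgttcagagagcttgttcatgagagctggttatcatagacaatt
In these windows no match overlapped another. A window was found for 27 members (29 windows, 3 of them for Unc119). On either strand, TAATCC occurred in 12 of the 29 windows (41.4%), against 7.06% of all 32851 windows of that length. The NRL motif TGCTGA occurred in 8 (27.6%), against 19.5% of all. Sag, Rpgrip1 and Aipl1 were the 3 members with both in a window (10.3%, against 1.36% of all). A match is a run of letters and not a measured binding site. None of these 3 genes passed the test.

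Levels per length differed widely between members, from Gucy2f at 26.3 to 37.3 FPKM to Gnat1 at 3171 to 5025 FPKM. Of the 37 members, 33 were among the 500 genes of highest mean FPKM, and Gnat1 ranked 4 of all genes. Below Gnat1 came Pdc (1949 ± 217 FPKM in KO-CNV and 2007 ± 222 FPKM in WT-CNV), Prph2 (1659 ± 202 FPKM in KO-CNV and 1534 ± 85.4 FPKM in WT-CNV) and Gnb1 (1285 ± 134 FPKM in KO-CNV and 1201 ± 110 FPKM in WT-CNV; SD, n = 4 each). The levels of Pdc and Prph2 in KO-CNV overlapped, as did those of Gnb1, Pde6g, Sag, Rom1 and Gngt1. The 4 members outside the 500 were Fscn2, Impg1, Impg2 and Gucy2f. Summed, the 37 members took 6.20, 6.64, 6.96 and 5.80% of the counts of KO-CNV libraries 1 to 4 and 6.06, 6.10, 6.19 and 6.30% of those of WT-CNV libraries 1 to 4. The KO-CNV libraries bracketed the WT-CNV libraries, and no direction followed. The log2 fold change was little related to gene length over the members (Pearson r = -0.20, Spearman rho = -0.17, 37 genes that share libraries).

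**Figure D2:**
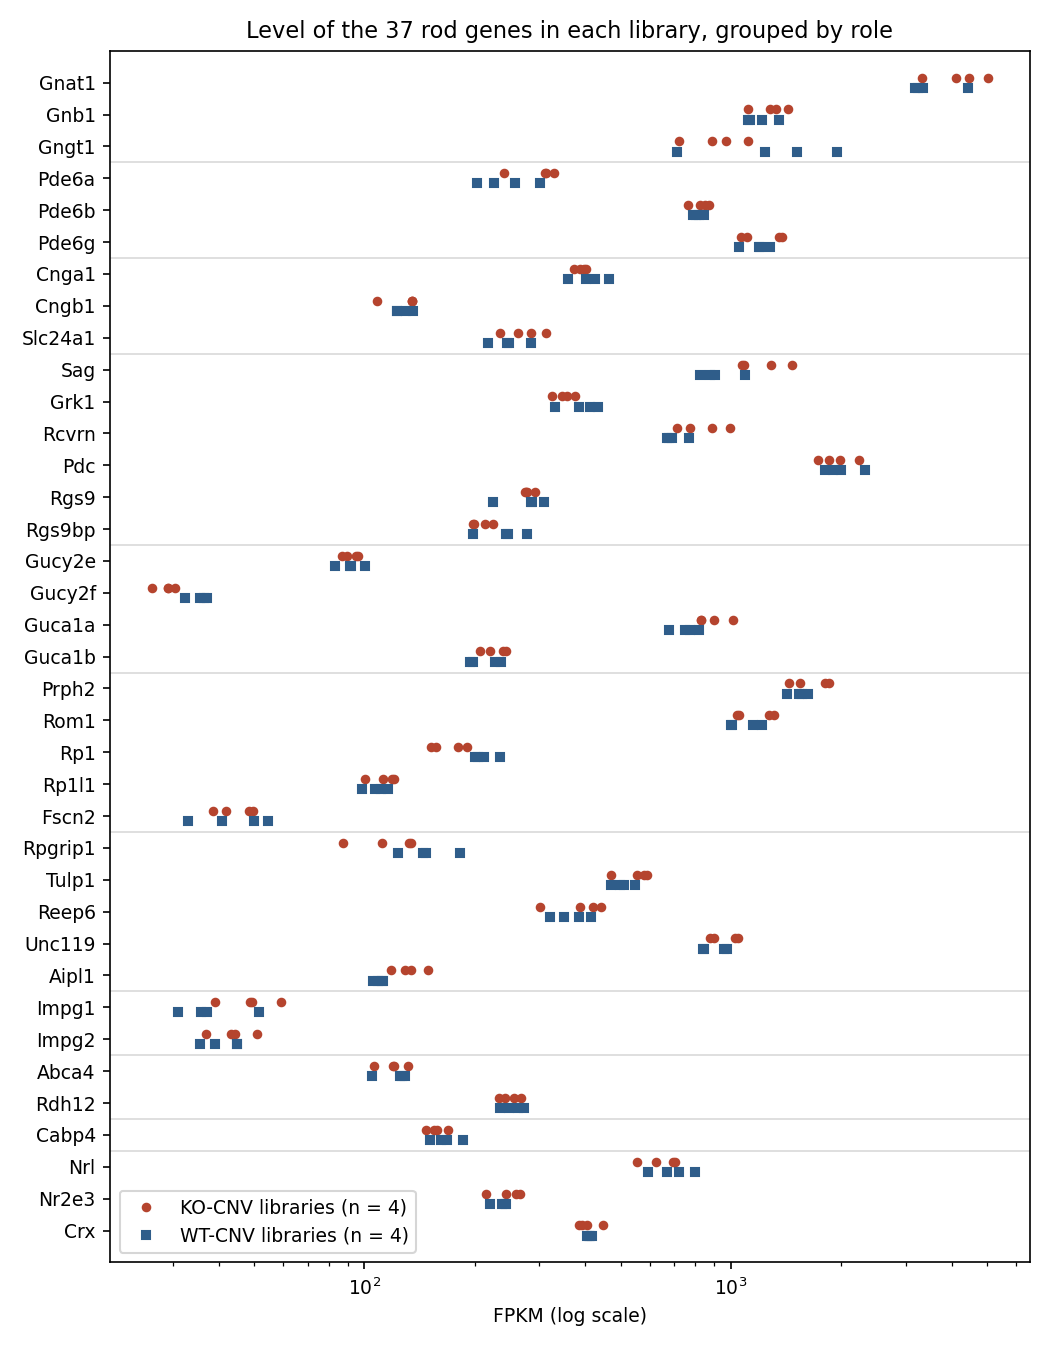
FPKM (x axis, log scale) of each rod gene (y axis, grouped by role) in the 4 KO-CNV libraries (circles) and the 4 WT-CNV libraries (squares). In FPKM the groups lie apart for Gucy2f, Rp1, Aipl1 and, narrowly, Guca1a.

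The 3 subunits of rod transducin, the G protein that carries the signal from the visual pigment, differed between libraries in unlike ways. Gnat1, the alpha subunit that binds GTP, was at 4118, 4452, 5025 and 3326 FPKM in KO-CNV libraries 1 to 4 and 3343, 3171, 3233 and 4443 FPKM in WT-CNV libraries 1 to 4. WT-CNV library 4 was as high as KO-CNV library 2, and KO-CNV library 4 was as low as the other 3 WT-CNV libraries. For Gnat1 the log2 fold change was 0.24 (SE 0.16, adjusted p = 0.396), 0.36 without WT-CNV library 4 (adjusted p = 0.0549) and 0.01 without the 3 libraries rich in lens transcript. Here and below, leaving out the lens-rich libraries keeps only KO-CNV libraries 1, 2 and 4 and WT-CNV libraries 1 and 4. Library 4 of each group thus weighs more in those values. Gngt1, the gamma subunit that anchors the complex to the disc, was at 720, 966, 889 and 1112 FPKM in KO-CNV and 1514, 1951, 1241 and 711 FPKM in WT-CNV libraries 1 to 4. Here 3 of the 4 WT-CNV libraries lay above every KO-CNV library. WT-CNV library 4 lay narrowly below every KO-CNV library in FPKM. In CPM it lay within the KO-CNV range, at 1396 against 1351 in KO-CNV library 1. For Gngt1 the log2 fold change was -0.57 (SE 0.24, adjusted p = 0.199), -0.78 without WT-CNV library 4 (SE 0.16, adjusted p = 0.00432) and -0.26 without the lens-rich libraries. Gnb1, the beta subunit, overlapped throughout at 1110 to 1434 FPKM in KO-CNV and 1111 to 1350 FPKM in WT-CNV.

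The transducin alpha to gamma ratio had the widest span of the 15 ratios computed. Gnat1 over Gngt1, taken within each library as FPKM, was 5.71, 4.61, 5.65 and 2.99 in KO-CNV and 2.21, 1.63, 2.61 and 6.25 in WT-CNV libraries 1 to 4. All KO-CNV libraries thus stood above WT-CNV libraries 1 to 3 and below WT-CNV library 4. The mean log2 ratio was higher by 0.73 in KO-CNV (SD 0.44 in KO-CNV and 0.83 in WT-CNV), which is less than the spread among the WT-CNV libraries, and by 1.12 without WT-CNV library 4.

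Of the 3 phosphodiesterase genes none was called, and Pde6a spread most between libraries. Pde6b, a catalytic subunit, was at 847, 823, 870 and 763 FPKM in KO-CNV and 803, 820, 787 and 845 FPKM in WT-CNV libraries 1 to 4. The KO-CNV range contained the WT-CNV range. Pde6g, the inhibitory subunit, averaged 1226 ± 162 FPKM in KO-CNV and 1179 ± 91.1 FPKM in WT-CNV (SD, n = 4 each). Pde6a, the other catalytic subunit, was at 312, 310, 330 and 241 FPKM in KO-CNV and 257, 203, 226 and 302 FPKM in WT-CNV libraries 1 to 4. As for Gnat1, KO-CNV library 4 was low and WT-CNV library 4 high in its group, and the groups overlapped. For Pde6a the log2 fold change was 0.25 (SE 0.14, adjusted p = 0.308), 0.37 without WT-CNV library 4 (adjusted p = 0.0431) and 0.02 without the lens-rich libraries. Per length, Pde6a was at 0.369, 0.377, 0.379 and 0.315 of Pde6b in KO-CNV and 0.320, 0.248, 0.287 and 0.357 of it in WT-CNV libraries 1 to 4.

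The channel and exchanger genes showed no called difference. Cnga1, the alpha subunit of the cyclic GMP-gated channel, averaged 390 ± 12.9 FPKM in KO-CNV and 413 ± 44.0 FPKM in WT-CNV (log2 fold change -0.10, SE 0.10, adjusted p = 0.595). Cngb1, the beta subunit, averaged 128 ± 13.1 FPKM in KO-CNV and 128 ± 6.50 FPKM in WT-CNV (SD, n = 4 each). Slc24a1, the exchanger that removes calcium from the outer segment, was at 262, 285, 312 and 235 FPKM in KO-CNV and 245, 217, 248 and 285 FPKM in WT-CNV libraries 1 to 4. Its log2 fold change was 0.12 (SE 0.12, adjusted p = 0.594), and it was -0.04 without the lens-rich libraries.

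Shut-off of the light response is carried by rod arrestin, rhodopsin kinase and the RGS9 complex that stops transducin. Recoverin, which inhibits rhodopsin kinase, and phosducin (Pdc) were grouped with them here. Sag, which encodes rod arrestin, was at 1288, 1071, 1469 and 1084 FPKM in KO-CNV and 874, 825, 907 and 1090 FPKM in WT-CNV libraries 1 to 4. All KO-CNV libraries lay above WT-CNV libraries 1 to 3, while WT-CNV library 4 matched the 2 lowest of them. For Sag the log2 fold change was 0.39 (SE 0.13, adjusted p = 0.126), 0.48 without WT-CNV library 4 (SE 0.12, adjusted p = 0.0116) and 0.20 without the lens-rich libraries.

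Rcvrn, which encodes recoverin, differed by 0.25 in log2 (SE 0.12, adjusted p = 0.248), with 774, 888, 996 and 712 FPKM in KO-CNV and 668, 678, 689 and 767 FPKM in WT-CNV libraries 1 to 4. Grk1, which encodes rhodopsin kinase, had -0.17 (SE 0.11, adjusted p = 0.367), with 325 to 374 FPKM in KO-CNV and 332 to 433 FPKM in WT-CNV. Grk1 over Rcvrn was 0.462, 0.421, 0.347 and 0.457 in KO-CNV and 0.648, 0.568, 0.599 and 0.433 in WT-CNV libraries 1 to 4. Only WT-CNV library 4 fell within the KO-CNV range of that ratio. Rgs9, the GTPase activator of transducin, averaged 280 ± 7.91 FPKM in KO-CNV and 276 ± 36.4 FPKM in WT-CNV. Its membrane anchor Rgs9bp averaged 208 ± 12.6 FPKM in KO-CNV and 241 ± 32.8 FPKM in WT-CNV (log2 fold change -0.23, SE 0.11, adjusted p = 0.262). Rgs9bp passed without WT-CNV library 4 (-0.31, adjusted p = 0.0293) and was at -0.08 without the lens-rich libraries.

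Guanylate cyclase genes, which restore cyclic GMP after light, held the member with the smallest p. Gucy2f (chromosome X, 142079286 to 142197276), the less abundant of the 2 photoreceptor cyclases, was at 30.3, 29.1, 26.3 and 29.1 FPKM in KO-CNV and 36.5, 32.4, 37.3 and 35.7 FPKM in WT-CNV libraries 1 to 4. The groups did not overlap, and WT-CNV library 4 stood with its own group. The log2 fold change was -0.33 (SE 0.08, 95% interval -0.51 to -0.14, adjusted p = 0.0585), and -0.31 without the lens-rich libraries. It lay just beyond the threshold here, and within it by DESeq2 (adjusted p = 0.00136) and limma-voom (adjusted p = 0.0484). Without WT-CNV library 4 it also passed (adjusted p = 0.0183). As this gene is X-linked, the RNA that marks female cells was read as well: Xist held 97550 to 119479 counts in KO-CNV and 108626 to 164308 in WT-CNV libraries, and the Y-linked Eif2s3y 0 to 1 in KO-CNV and 0 to 6 in WT-CNV libraries. The labels give no sex, but by these counts every library came from female tissue.

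Gucy2e, the main cyclase, was at 86.7 to 96.2 FPKM in KO-CNV and 82.9 to 100 FPKM in WT-CNV. Gucy2e over Gucy2f was accordingly 2.95, 3.25, 3.66 and 2.98 in KO-CNV and 2.52, 2.56, 2.68 and 2.57 in WT-CNV libraries 1 to 4, without overlap. Of the calcium sensors that switch the cyclases on, Guca1a was at 827, 901, 1014 and 831 FPKM in KO-CNV and 677, 816, 747 and 774 FPKM in WT-CNV libraries 1 to 4, apart by a narrow margin in FPKM but overlapping in CPM. Guca1a differed by 0.23 in log2 (SE 0.11, adjusted p = 0.245). Guca1b averaged 227 ± 17.0 FPKM in KO-CNV and 214 ± 20.9 FPKM in WT-CNV (SD, n = 4 each).

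**Figure D3:**
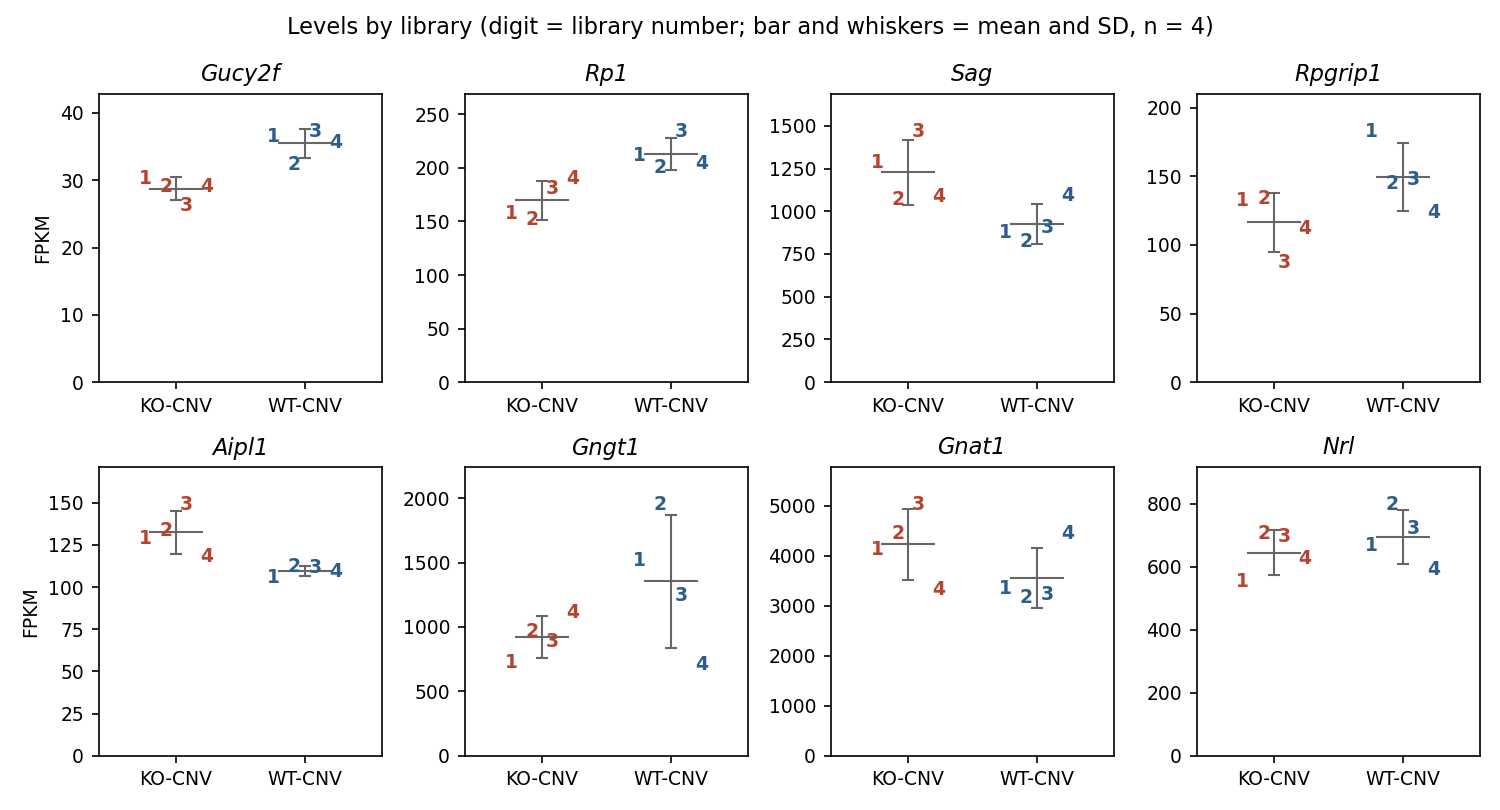
FPKM (y axis, from 0) of 8 rod genes in KO-CNV (left of each panel) and WT-CNV libraries (right); digits are library numbers, and the bar and whiskers are the mean and SD of 4. WT-CNV library 4 lies at the KO-CNV level for Gnat1 and, in FPKM, narrowly below all KO-CNV libraries for Gngt1. It lies with its own group for Gucy2f and Rp1.

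Among genes of the disc and the axoneme, the microtubule core of the outer segment, Rp1 stood apart. Rp1 (chromosome 1, 4115673 to 4409266), a microtubule-binding protein that keeps discs aligned, was at 157, 152, 181 and 190 FPKM in KO-CNV and 212, 201, 234 and 204 FPKM in WT-CNV libraries 1 to 4. Every KO-CNV library lay below every WT-CNV library. The log2 fold change was -0.34 (SE 0.11, adjusted p = 0.110), -0.34 also without the lens-rich libraries, and -0.36 without WT-CNV library 4 (adjusted p = 0.0274). By DESeq2 it passed (adjusted p = 0.0173). Its relative Rp1l1 averaged 113 ± 9.07 FPKM in KO-CNV and 108 ± 7.44 FPKM in WT-CNV (SD, n = 4 each). Rp1 over Rp1l1 was 1.40, 1.26, 1.52 and 1.89 in KO-CNV and 1.91, 2.04, 2.02 and 1.90 in WT-CNV libraries 1 to 4. KO-CNV library 4 came close to the lowest WT-CNV library, and the other KO-CNV libraries lay well below.

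Prph2 and Rom1 encode the tetraspanins that bend the disc rim. Prph2 over Rom1 overlapped between the groups, at 1.48, 1.37, 1.46 and 1.37 in KO-CNV and 1.41, 1.26, 1.41 and 1.56 in WT-CNV libraries 1 to 4. Fscn2, an actin-bundling protein, was at 38.7 to 49.7 FPKM in KO-CNV and 32.9 to 54.4 FPKM in WT-CNV. Rom1 and Cabp4 were the members on the chromosome of Cd274, 20.4 and 25.2 Mb from it.

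No gene of the connecting cilium or of protein delivery passed the test. Rpgrip1 (chromosome 14, 52104241 to 52161339), which tethers the ciliary protein RPGR, was at 132, 134, 87.4 and 112 FPKM in KO-CNV and 183, 145, 147 and 123 FPKM in WT-CNV libraries 1 to 4. WT-CNV library 4 fell within the KO-CNV range and the other 3 above it. The log2 fold change was -0.39 (SE 0.14, adjusted p = 0.154), -0.47 without WT-CNV library 4 (adjusted p = 0.0230) and -0.30 without the lens-rich libraries. Exons of Rpgrip1 share 1057 bases (8.70%) with Supt16 on the other strand in GENCODE M21, and no source used here says whether strand was used in counting.

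Aipl1 (chromosome 11, 72028717 to 72042460), the chaperone that the phosphodiesterase needs to fold, was at 129, 134, 149 and 118 FPKM in KO-CNV and 106, 112, 111 and 109 FPKM in WT-CNV libraries 1 to 4. Every KO-CNV library lay above every WT-CNV library. Its log2 fold change was 0.25 (SE 0.10, adjusted p = 0.167) and 0.22 without the lens-rich libraries, and it passed under no alternative run. Aipl1, Gucy2f and Rp1 were the 3 members without overlap in CPM, 8.11% of members against 11% of all tested genes (5.19% higher and 5.78% lower). Tulp1, which helps visual pigment reach the outer segment, averaged 548 ± 54.3 FPKM in KO-CNV and 506 ± 31.5 FPKM in WT-CNV. Reep6, a membrane-shaping protein of rods, averaged 388 ± 61.7 FPKM in KO-CNV and 367 ± 40.2 FPKM in WT-CNV. Unc119, a carrier of lipid-tagged transducin alpha, averaged 960 ± 85.5 FPKM in KO-CNV and 904 ± 72.8 FPKM in WT-CNV (SD, n = 4 each).

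Impg1 and Impg2 encode proteoglycans of the matrix around photoreceptors. Impg1 was at 48.8, 49.3, 59.1 and 39.1 FPKM in KO-CNV and 37.1, 30.9, 35.8 and 51.4 FPKM in WT-CNV libraries 1 to 4. Again KO-CNV library 4 was the lowest of its group and WT-CNV library 4 the highest. The log2 fold change was 0.32 (SE 0.16, adjusted p = 0.261), 0.49 without WT-CNV library 4 (SE 0.13, adjusted p = 0.0165) and 0.03 without the lens-rich libraries. Impg2 averaged 43.9 ± 5.79 FPKM in KO-CNV and 41.1 ± 4.62 FPKM in WT-CNV.

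No gene of retinoid handling, the synapse or the transcription factors among the members was called. Abca4, the flippase that clears retinal from discs, averaged 119 ± 10.4 FPKM in KO-CNV and 122 ± 11.1 FPKM in WT-CNV. Rdh12, which reduces retinal, averaged 249 ± 14.9 FPKM in KO-CNV and 254 ± 16.3 FPKM in WT-CNV (log2 fold change -0.05, SE 0.09, adjusted p = 0.796). Cabp4, a calcium sensor of the photoreceptor synapse, averaged 157 ± 8.84 FPKM in KO-CNV and 167 ± 14.5 FPKM in WT-CNV (log2 fold change -0.10, SE 0.09, adjusted p = 0.541). Exons of Cabp4 share 131 bases (3.72%) with Gpr152 on the other strand. Nrl differed by -0.13 in log2 (SE 0.13, 95% interval -0.40 to 0.15, adjusted p = 0.587), with overlapping groups. Its partners Crx (407 ± 28.2 FPKM in KO-CNV and 411 ± 4.88 FPKM in WT-CNV) and Nr2e3 (245 ± 22.6 FPKM in KO-CNV and 235 ± 10.8 FPKM in WT-CNV) had overlapping groups too (SD, n = 4 each). Both spread more among the KO-CNV than among the WT-CNV libraries.

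Of 15 ratios between partner genes, 2 did not overlap between the groups (13.3%), Gucy2e over Gucy2f and Rp1 over Rp1l1, where 11% of single genes did not overlap in CPM. Both contain a gene whose own groups were apart.

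**Figure D4:**
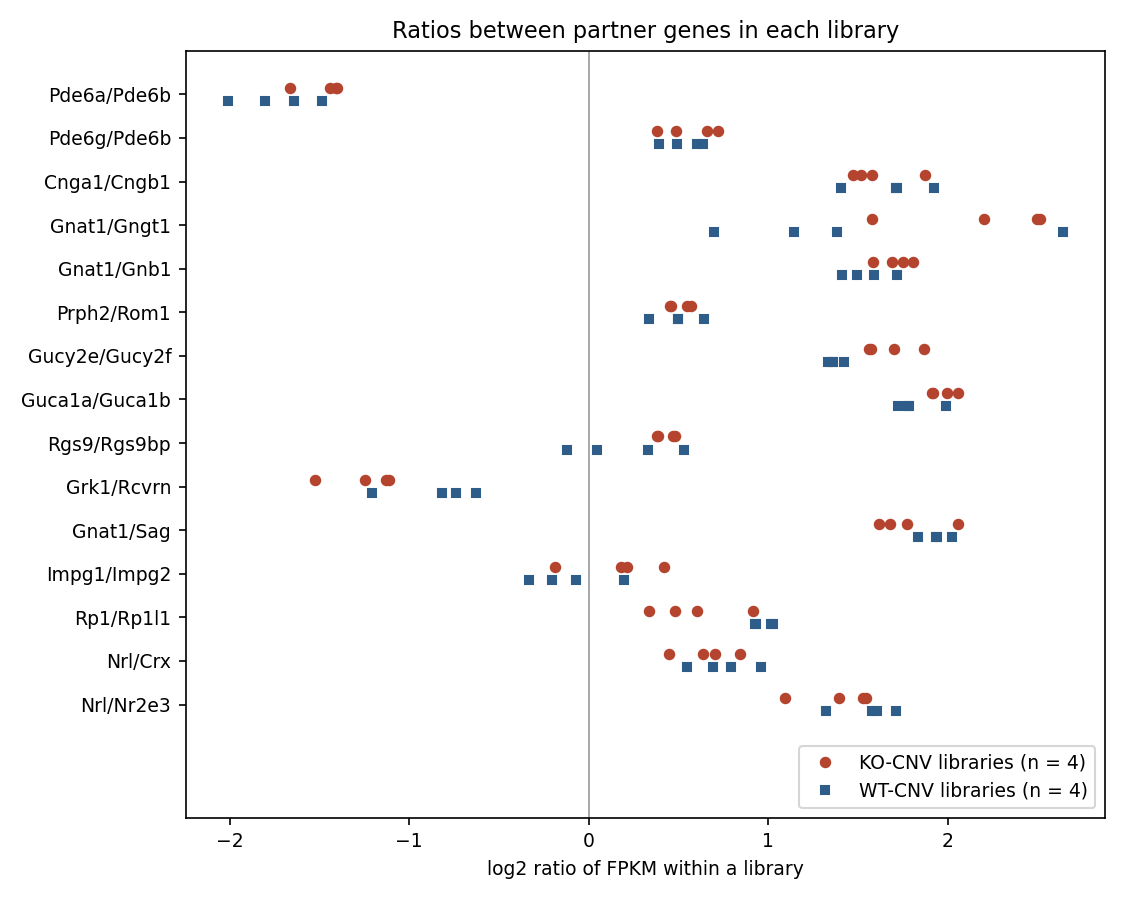
Log2 ratio of FPKM within each library (x axis) for 15 pairs of partner genes (y axis), with circles for KO-CNV and squares for WT-CNV libraries. Gnat1 over Gngt1 is the widest, from 1.63 to 6.25 as a plain ratio, and only the Gucy2e to Gucy2f and Rp1 to Rp1l1 ratios do not overlap.

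Across libraries the members varied along 1 main direction. A principal component analysis of their log2 CPM gave a first component with 55.3% of the variance. It placed KO-CNV libraries 1 to 4 at 0.66, 0.50, 1.25 and -0.25 and WT-CNV libraries 1 to 4 at -0.92, -1.25, -0.67 and 0.67. KO-CNV library 4 and WT-CNV library 4 each lay on the other group's side. Gngt1 had the lowest weight (-0.52), and Impg1 (0.35), Sag (0.29), Gnat1 (0.27) and Pde6a (0.26) had the highest. With Gngt1 left out, the scores were 0.27, 0.56, 1.41 and -0.33 for KO-CNV and -0.85, -0.81, -0.58 and 0.34 for WT-CNV libraries 1 to 4, with the same sign in each library. WT-CNV library 4 was nearer to the KO-CNV mean than to that of the other WT-CNV libraries for 24 of 37 members. KO-CNV library 4 was nearer to the WT-CNV mean, which includes WT-CNV library 4, than to that of the other KO-CNV libraries for 27. These counts were not taken over all tested genes, so nothing particular to rod genes is read from them. The lens-rich KO-CNV library 3 had the highest score and the lens-rich WT-CNV library 2 the lowest, and of the 4 genes of highest weight Impg1, Gnat1 and Pde6a had log2 fold changes of 0.03, 0.01 and 0.02 without the lens-rich libraries, and Sag 0.20. Those values set KO-CNV libraries 1, 2 and 4 against WT-CNV libraries 1 and 4 only, so library 4 of each group weighs more in them. KO-CNV library 3, which they leave out, was the highest of its group in FPKM for all 4 genes. The part of lens transcript in this axis was not tested. Amacrine cell markers (10 genes) summed to 1180, 1127, 1167 and 1218 CPM in KO-CNV and 962, 901, 790 and 1443 CPM in WT-CNV libraries 1 to 4, so that WT-CNV library 4 was apart from its group there as well. Sums of bipolar, horizontal and ganglion cell markers were also highest of their group in WT-CNV library 4 (2491, 341 and 1291 CPM). Those of cone, microglia and macrophage, and retinal pigment epithelium markers were lowest of their group there (2198, 103 and 101 CPM). For the cone sum and the microglia and macrophage sum the margin was small. WT-CNV library 1 had 2200 CPM for cones, and WT-CNV library 3 had 105 CPM for microglia and macrophages. The Mueller glia sum was neither highest nor lowest in WT-CNV library 4. The part of these markers in the rod gene values was not tested.

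**Figure D5:**
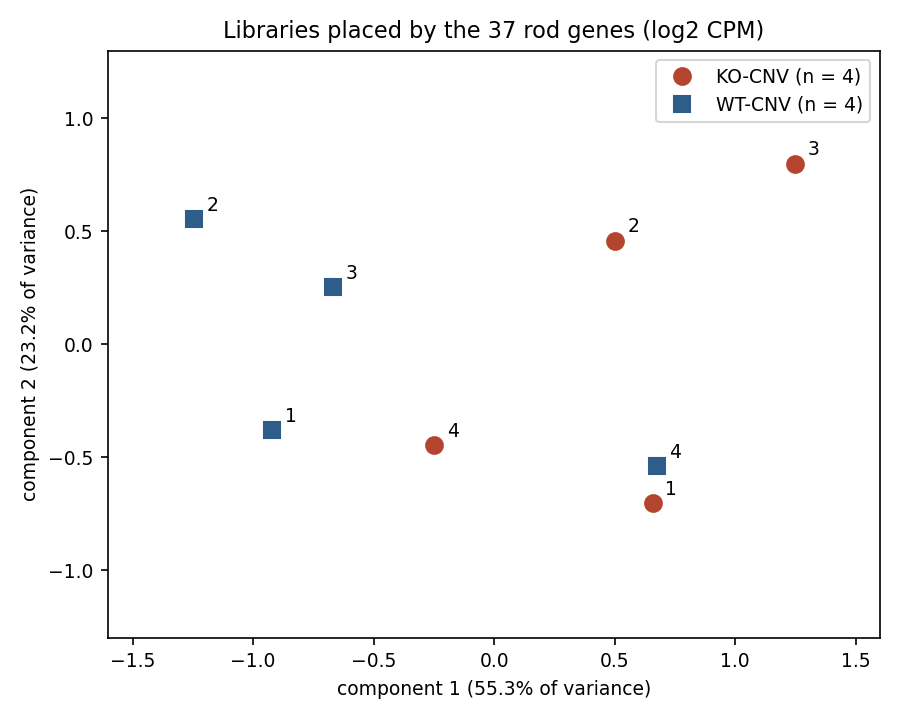
Libraries placed by components 1 (x axis, 55.3% of variance) and 2 (y axis, 23.2%) of the log2 CPM of the 37 rod genes, with digits for library numbers. KO-CNV library 4 and WT-CNV library 4 lie on the side of the other group along component 1.

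Beyond the members, 67 other photoreceptor genes in 4 lists were read in the same fit. None rose and 4 fell (5.97%), where 1.2% of all tested genes rose and 1.35% fell. By the number of genes, the outer segment and cilium list held most of them, with 3 of 28 lower and a median log2 fold change of -0.07. Arl13b, a small GTPase of the ciliary membrane, fell by 0.38 in log2 terms (SE 0.08, adjusted p = 0.0318). It was at 23.3, 21.3, 22.2 and 25.3 FPKM in KO-CNV and 29.0, 30.6, 30.7 and 27.5 FPKM in WT-CNV libraries 1 to 4. Rpgr, the ciliary partner of Rpgrip1, fell by 0.42 in log2 terms (SE 0.10, adjusted p = 0.0420), with 9.97, 8.05, 7.13 and 8.76 FPKM in KO-CNV and 12.3, 10.6, 10.6 and 11.0 FPKM in WT-CNV libraries 1 to 4. Fam161a, a microtubule-associated protein of the connecting cilium, fell by 0.53 in log2 terms (SE 0.12, adjusted p = 0.0444), with 40.4 to 54.8 FPKM in KO-CNV and 54.7 to 78.3 FPKM in WT-CNV. The lowest value of Fam161a in WT-CNV was that of library 4. In that list, 7 of 28 genes lay lower in KO-CNV without overlap in CPM (25%, against 5.78% of all tested genes) and none higher. Fam161a was among them by a narrow margin, though its groups overlapped narrowly in FPKM.

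The other lists held 1 further call. Among 10 transcription factors Mef2c, a MEF2 family factor, fell by 0.36 in log2 terms (SE 0.08, adjusted p = 0.0414), with a list median of -0.13. These calls changed when 1 library was left out, but the fold changes kept their sign. Over those fits the log2 fold change was -0.42 to -0.35 for Arl13b, -0.50 to -0.35 for Rpgr, -0.63 to -0.46 for Fam161a and -0.39 to -0.31 for Mef2c. Calls over all genes moved as well. From 2.55% of tested genes they went to 18.7% without WT-CNV library 4, and to between 0.63 and 1.94% without any other 1 library. Mef2c and Fam161a missed the threshold without any 1 library but WT-CNV library 4 (adjusted p up to 0.136 and 0.155), Rpgr without any but KO-CNV library 1 or WT-CNV library 4 (up to 0.146), and Arl13b without any but KO-CNV library 4 or WT-CNV library 4 (up to 0.123). Of 10 membrane and survival genes and 19 synapse genes none passed, with medians of -0.05 and -0.01. Among those with small p were Kcnv2, a potassium channel subunit 2.0 Mb from Cd274 (log2 fold change -0.20, SE 0.10, adjusted p = 0.244), Dag1, dystroglycan (0.39, SE 0.10, adjusted p = 0.0517), and Syp, synaptophysin (0.36, SE 0.11, adjusted p = 0.0989).

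Cone and bipolar cell genes were set beside the rod genes. Of 15 tested cone genes 1 fell (6.67%, against 1.35% of all tested genes), cone arrestin Arr3 (log2 fold change -0.45, SE 0.10, adjusted p = 0.0375). The median of the cone genes was -0.05. None was called higher, but 7 of the 15 had a positive log2 fold change, the largest 0.44. Arr3 is named because its values were seen, and it kept the call without 1 library only where that was KO-CNV library 2 or WT-CNV library 4 (adjusted p up to 0.138). Its log2 fold change was -0.52 to -0.39 over those fits. Of 14 bipolar cell genes none passed, and the median was 0.09. Their sums overlapped, at 1989 to 2330 CPM in KO-CNV and 2198 to 2335 CPM in WT-CNV for cones, and 2286 to 2503 CPM in KO-CNV and 2080 to 2491 CPM in WT-CNV for bipolar cells. The bipolar sums overlapped through WT-CNV library 4 alone, as WT-CNV libraries 1 to 3 lay at 2080 to 2254 CPM. Whether rod, cone and bipolar lists differ from each other was not tested. Other cell types moved in the same libraries. Of 13 microglia and macrophage genes 7 rose (53.8%) and of 11 Mueller glia genes 2 rose (18.2%), against 1.2% of all tested genes. The microglia and macrophage sums were 183 to 233 CPM in KO-CNV and 103 to 156 CPM in WT-CNV. Retinal pigment epithelium markers summed to 158 to 335 CPM in KO-CNV and 101 to 223 CPM in WT-CNV. Their part in the rod values was not tested.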

How the data were processed

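RNA libraries of mouse retina came from a VAHTS Universal V6 kit (labels' protocols). Per the submitters' processing notes, the authors used fastp, HISAT2 and HTSeq on mm10; no source used here gives versions, annotation or strand setting. The deposited counts are whole reads per gene. The deposited FPKM values, by the authors, equal count over library total and 1 length per gene. Columns were matched to samples by title.

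Counts were tested with edgeR 4.0.16 in R 4.3.3: TMM scaling, filterByExpr (minimum count 10, total 15; 16861 genes kept), quasi-likelihood fit without covariates, two-sided, Benjamini-Hochberg over all tested genes, threshold 0.05. SE is the log2 fold change over the square root of F, and 95% intervals use the fit's degrees of freedom. CPM use TMM-scaled library sizes. The fit was tested on simulated data. DESeq2 1.42.0 and limma 3.58.1 served as alternatives.

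Members and lists were chosen with earlier results of these data known. The rule named every member, with full statistics for called members, Nrl and the member of smallest p in each role, plus up to 3 called genes (or 2 uncalled) per other list; members with an unadjusted p under 0.05 or a log2 fold change beyond 0.1, and Arr3, were added after their values were seen. Some genes that the rule would name are not reported here. Every member had at least 3552 counts per library, so replicate spread, not depth, limits precision. Loci and windows are RefSeq's on GRCm38.p6, matched by Entrez identifier for all 37 members.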

Additional observations from a re-analysis of the deposited data

Results flagged for a closer look

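Single libraries stood apart from the other 3 of their group in 3 of 108 groups of values examined, where chance gives about 1 in 20. Gnat1 was highest in WT-CNV library 4, at 4443 FPKM, while the other WT-CNV libraries lay between 3171 and 3343 FPKM. Cngb1 was lowest in KO-CNV library 4, at 108 FPKM, while the other KO-CNV libraries were at 135 FPKM. The ratio of Pde6a to Pde6b was lowest in KO-CNV library 4, at 0.315, while it was 0.369 to 0.379 in the other KO-CNV libraries.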

How the results depend on the processing

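The 21 alternatives left every one of the 37 rod genes uncalled except under DESeq2 (1 higher and 2 lower), limma-voom (0 higher and 1 lower) and without 1 library, where 0 to 3 were higher and 0 to 5 lower, all 8 calls coming without WT-CNV library 4. Of the members, 21 kept the sign of their fold change under all alternatives. Among the 18 whose fold change is printed, Cnga1 and Slc24a1 changed sign without the 3 lens-rich libraries (0.0054 and -0.044) and Rdh12 with the lens sum as covariate (0.013), none of them called in any fit. The members' median moved by less than the spread of the library medians (SD 0.10 on the log2 scale).

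Counts over all genes (203 higher, 227 lower) moved to 131 lower with library size only, 336 higher and 354 lower without a filter, 618 and 774 with DESeq2, 78 lower with limma-trend on log2(FPKM + 1), 103 lower on log2(FPKM + 0.1), 7 higher and 8 lower without the lens-rich libraries (3 KO-CNV against 2 WT-CNV), 128 and 136 with the lens sum as covariate, and 62 to 1806 higher and 46 to 1403 lower without 1 library. The other photoreceptor genes (0 higher, 4 lower) moved to 1 higher with robust dispersions, limma-voom, upper quartile scaling, no filter and library size only, to 4 higher and 8 lower with DESeq2, to 1 lower with library size only, either limma-trend fit and the lens covariate, to 0 lower without the lens-rich libraries, and to 0 to 8 higher and 0 to 11 lower without 1 library. The cause was not tested.

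The replicate block, with the title number as a block, gave 121 genes higher and 107 lower, no member, and 1 other photoreceptor gene lower. The numbers did not pair the libraries: same-numbered libraries correlated at 0.21, -0.04, 0.12 and 0.01 in their deviations from the group means, and not every library correlated best with its own number.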

Other observations

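Several X-linked photoreceptor genes were seen, after their values were known, to have a negative log2 fold change. Among them were Arr3 (-0.45), Rpgr (-0.42), Rp2 (-0.40), Gucy2f (-0.33), Dmd (-0.26), Cacna1f (-0.15) and Opn1mw (-0.07), while X-linked Syp had a positive one (0.36). Over all 560 tested X-linked genes the median was -0.07 and 60.2% were negative, beside a median of 0.00 and 49.5% for autosomal genes. On X, 3 genes were called higher and 8 lower (1.43% lower, against 1.32% of autosomal genes).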
